A study of Mus musculus with 3 samples.

Results

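The Pax1-high spots of a mouse embryo section at E12.5 (E for embryonic day) were divided by their Col2a1 level, and the 2 groups were compared gene by gene. The rule took the spots of that section with at least 1000 unique molecular identifiers (UMIs, each 1 captured mRNA molecule), ranked them by the summed UMIs of Pax1 and Pax9 over all UMIs, kept the top 12%, and split these at the median share of Col2a1. The spots were thus chosen by their measured Pax1, Pax9 and Col2a1 levels. The rule gave 122 Pax1-high spots of 1014 in the section and of 3942 in the series, 61 with Col2a1 above the median (Col2a1-high) and 61 at or below it (Col2a1-low). The series measured poly(A) RNA with Visium arrays in 10 µm cryosections of embryonic mouse axial skeleton, with 1 section at each of 3 stages, E12.5 and the days before and after it (E11.5 and E13.5), and no treatment or genotype named in the labels. A spot is 55 µm wide, with 100 µm between centres, and can hold several cells of different types or parts of them. Both groups therefore come from 1 section of 1 embryonic stage, share its library, and have no replicate, so the E12.5 values carry counting error only and no test.

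In the vertebrate embryo the ventral part of each somite becomes the sclerotome, mesenchyme that surrounds the notochord and the neural tube and builds the vertebrae and intervertebral discs. Sonic hedgehog from the notochord and floor plate induces the paired-box genes Pax1 and Pax9 there, and Sox9 then drives the condensing cells to make cartilage. Cartilage onset is seen in collagen II, encoded by Col2a1, followed by collagens IX and XI and by the proteoglycan aggrecan.

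The choosing genes are given only as a description. Levels are in CPM, the UMIs of a gene over all UMIs of the same spots, scaled to 1000000. Col2a1 was at 8431 CPM in the Col2a1-high spots, between 4130 and 22912 CPM in single spots, and at 1937 CPM in the Col2a1-low spots, between 411 and 3967 CPM. The spots nearest to the division had 4130 and 3967 CPM of Col2a1, and those nearest to the Pax1 threshold had 464 CPM of Pax1 and Pax9 inside and 458 CPM outside, so neither threshold falls in a gap. Pax1 was at 1058 and 898 CPM and Pax9 at 146 and 119 CPM in the Col2a1-high and Col2a1-low spots.

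The Col2a1-high spots held 1161981 UMIs in all, with a median of 19131 UMIs and 5742 genes per spot, and the Col2a1-low spots held 1483176 UMIs, with a median of 23335 UMIs and 6294 genes. The shallowest Col2a1-low spot had 1690 UMIs, so that 1 UMI in it equals 592 CPM. Globin UMIs made up 0.218% of the Col2a1-high and 0.888% of the Col2a1-low total, and mitochondrial UMIs 0.363% and 0.507%. The sections shared 434 to 704 spot barcodes pair by pair, which are positions on the array and not cells.

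Other sclerotome genes bore out the label in part. Foxc2, a forkhead factor of somite and sclerotome, was at 134 CPM in the Col2a1-high and 125 CPM in the Col2a1-low spots, against 35.7 CPM in the 770 spots of the section that were neither Pax1-high nor among the next highest in Col2a1. Foxc1 was at 284 and 336 CPM against 83.6 CPM, and Uncx, which marks the posterior part of each sclerotome, at 103 and 93.7 CPM against 33.7 CPM. Twist1, a mesenchymal factor, was at 127 and 176 CPM against 123 CPM, within a ratio of 1.5 in both groups. Meox1, an early somite factor, was at 6.88 CPM in the Col2a1-high spots, below the 43.8 CPM of the Col2a1-low spots and the 42.1 CPM of the remaining spots. Nkx3-2, which acts downstream of Pax1 in sclerotome, had 3 UMIs over all 122 spots. The spots are therefore called Pax1-high here.

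A gene counted as higher or lower if its CPM differed by a ratio of 1.5 or more, given 100 or more UMIs in the 122 spots. Of 5066 genes with that many UMIs, 285 were higher (5.63%) and 189 lower (3.73%) in the Col2a1-high spots, leaving out Pax1, Pax9 and Col2a1. The median log2 ratio of all 5066 genes was 0.02. Intervals on a ratio are exact 95% binomial intervals and cover counting error only. In summed spots, fewer cells of a type and less of an RNA per cell cannot be told apart.

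**Figure D1:**
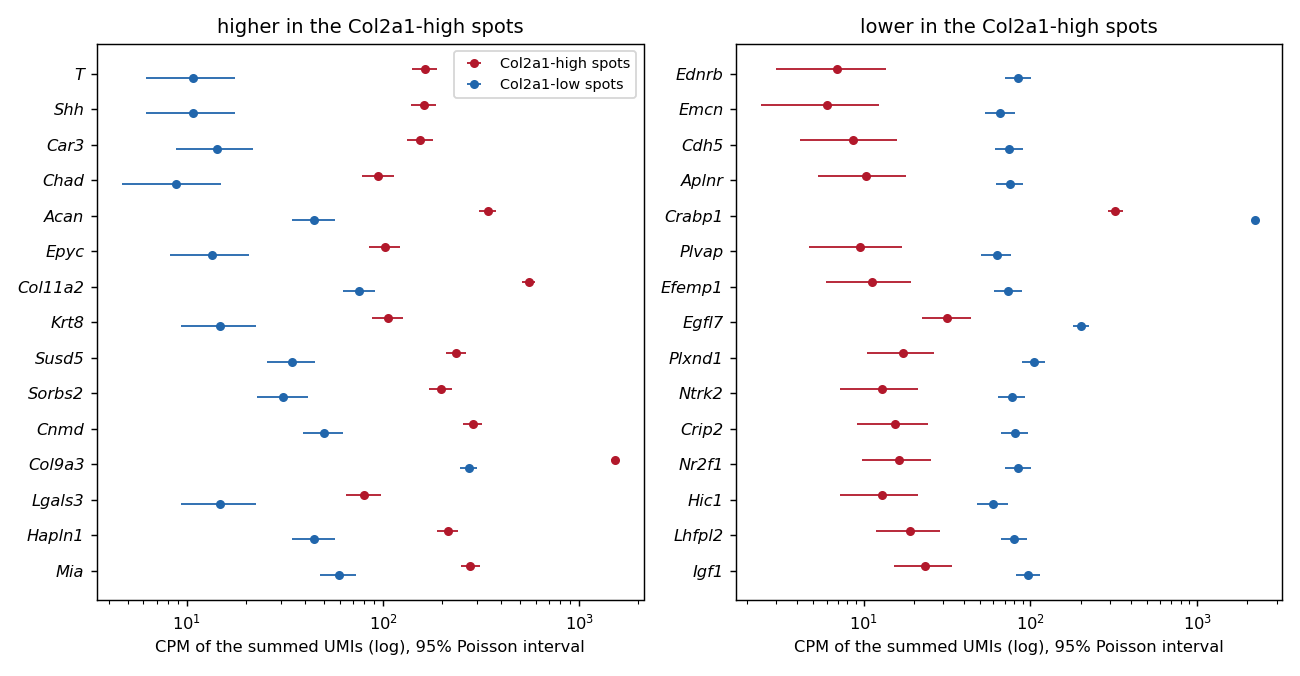
The 15 genes with the largest ratio in each direction at E12.5. Points are CPM of the UMIs summed over 61 Col2a1-high spots (red) or 61 Col2a1-low spots (blue) on a log axis, and bars are exact 95% Poisson intervals; the intervals of the groups stand apart for each of these genes, which were picked for their ratios.

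Cartilage matrix genes were higher in the Col2a1-high spots. Of 24 genes on that list, 15 had at least 100 UMIs and those 15 were higher, with a median log2 ratio of 2.26. The other 9 had too few UMIs to be counted, among them Matn1, a matrilin, with 39 UMIs against 7, and Comp, a pentameric matrix protein of later cartilage, with 8 against 2. Reaching 100 UMIs is easier for a gene that is high in 1 of the groups, so the count describes the measured genes and is no support by itself.

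Aggrecan, the large proteoglycan that holds water in cartilage, ranged in single Col2a1-high spots from 0 to 1254 CPM with a median of 239, and in Col2a1-low spots from 0 to 260 CPM with a median of 37.4. Its gene Acan had a UMI in 60 of 61 Col2a1-high and 36 of 61 Col2a1-low spots, and the ratio of the summed levels was 7.70 (interval 5.92 to 10.1). The spot ranges overlapped, as they did for every other gene given here by single spots apart from Col2a1, but most Col2a1-high spots lay above the median of the Col2a1-low spots. After thinning each spot to 10000 UMIs, which left out 3 Col2a1-high and 1 Col2a1-low spots, 89.7% of Col2a1-high, 26.7% of Col2a1-low and 15.4% of all other spots of the section kept an Acan UMI. Hapln1, the link protein that ties aggrecan to hyaluronan, was at 213 CPM against 44.5 CPM, 4.80-fold higher.

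The collagens that assemble with collagen II followed the same order. Col9a3, a chain of the fibril-surface collagen IX, ran from 294 to 5839 CPM with a median of 1359 in Col2a1-high spots and from 0 to 898 CPM with a median of 237 in Col2a1-low spots, a ratio of 5.54 (4.97 to 6.18). Col9a2 was 4.34-fold and Col9a1 3.74-fold higher. Col11a2, a chain of the fibril-core collagen XI, was at 553 CPM against 75.5 CPM, 7.32-fold higher (5.98 to 9.02), and Col11a1 3.91-fold. The 3 collagen IX genes and both collagen XI genes thus differed by more than 3-fold each, and Col27a1, a further fibrillar collagen of cartilage, by 3.42-fold.

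Among the smaller matrix proteins, Chad (chondroadherin, a leucine-rich cell-binding protein) was 10.8-fold higher, at 94.7 CPM against 8.76 CPM and with a UMI in 49 against 12 spots. Epyc (epiphycan, a small proteoglycan) was 7.59-fold, Cnmd (chondromodulin, which keeps vessels out of cartilage) 5.74-fold and Matn4 (a matrilin) 3.49-fold higher. Mia, a small protein secreted by chondrocytes, was 4.70-fold higher. The smallest difference on the list was that of Vcan, the versican proteoglycan of early mesenchymal condensations, at 685 CPM against 432 CPM, 1.59-fold. In the 770 remaining spots Vcan was at 156 CPM, below both groups.

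**Figure D2:**
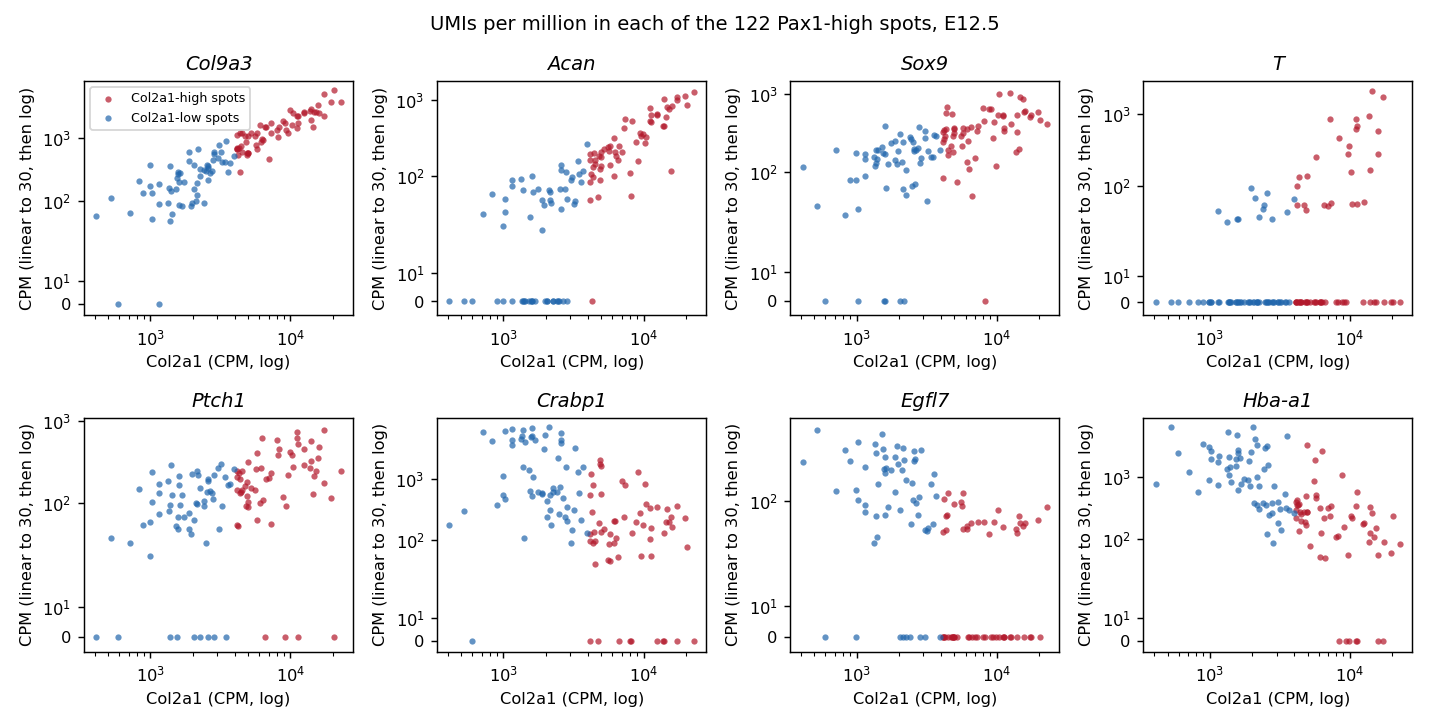
Levels of 8 genes in each of the 122 Pax1-high spots at E12.5 against Col2a1 in the same spot. The x axis is Col2a1 in CPM on a log scale and the y axis CPM, linear up to 30 and log above; red points are Col2a1-high and blue points Col2a1-low spots. Col9a3 climbs with Col2a1 from spot to spot, T is at 0 in most spots and reaches 2095 CPM in single Col2a1-high spots, and Crabp1, Egfl7 and Hba-a1 are mostly lower in the red points.

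The transcription regulators of cartilage were split. Of 22 listed, 11 had 100 UMIs, 7 were higher and 1 lower, with a median log2 ratio of 0.87. Sox9, the master factor of chondrogenesis, was at 380 CPM against 153 CPM, 2.48-fold higher (2.11 to 2.92), with single spots from 0 to 1036 CPM (median 359) in the Col2a1-high group and from 0 to 385 CPM (median 155) in the Col2a1-low group. Sox9 UMIs were found in 55 of the 61 Col2a1-low spots, and their level there was above the 44.9 CPM of the 770 remaining spots. Its partners Sox6 (69.7 against 20.2 CPM, 3.45-fold) and Sox5 (80.0 against 32.4 CPM, 2.47-fold) were higher too.

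The largest ratio among these regulators was that of Wwp2, a ubiquitin ligase gene that hosts a cartilage microRNA in an intron, at 1942 CPM against 421 CPM, 4.61-fold higher (4.22 to 5.05). Nfatc1, Creb3l2 (a membrane-bound factor for the secretory load of chondrocytes) and Trps1 were higher by 2.21, 1.82 and 1.55-fold. Foxp1, a forkhead repressor, was 1.67-fold lower. Nfib, Foxp2 and Cbfb, the partner of Runx factors, were within a ratio of 1.5 and were not counted.

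Genes that serve matrix production were higher as well, though by less. Of 34 genes for collagen folding and secretion, 25 had 100 UMIs, 11 were higher and none lower, with a median log2 ratio of 0.51. The collagen-modifying enzymes led: Loxl3 (a lysyl oxidase that cross-links collagen) at 120 against 38.4 CPM, P4ha1 and P4ha2 (prolyl hydroxylases) 2.92-fold and 2.17-fold higher, and Plod1 and Plod2 (lysyl hydroxylases) 2.15-fold and 2.10-fold. Serpinh1, the collagen chaperone, was at 1593 and 1319 CPM and was not counted.

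For proteoglycans, 11 of 30 listed genes of chain synthesis and sulfation had 100 UMIs, and 6 were higher and none lower. Papss2, which makes the sulfate donor, was at 170 CPM against 37.1 CPM, 4.57-fold higher (3.38 to 6.28), while its relative Papss1 differed by 1.55-fold. Ugdh, which makes the glucuronate building block, was 2.30-fold higher.

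Glycolysis and hypoxia genes were higher too, with 11 of the 16 measured genes higher and none lower (23 listed, median log2 ratio 0.82). Ldha, lactate dehydrogenase, ran from 574 to 3154 CPM (median 1612) in Col2a1-high and from 185 to 1843 CPM (median 682) in Col2a1-low spots, a ratio of 2.05 (1.91 to 2.21). Pfkp, a phosphofructokinase, was 2.85-fold and the hypoxia-induced mitophagy gene Bnip3 2.58-fold higher, and the glucose transporter Slc2a1 and Vegfa, the vessel growth factor, 1.73-fold and 1.64-fold. Gapdh (1.21-fold higher) and Hif1a, the hypoxia-inducible factor itself (119 and 130 CPM), were not counted.

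Proliferation genes differed little. Of 27 measured cell cycle genes, Cdkn1c alone passed the ratio, a cyclin-dependent kinase inhibitor, at 1319 CPM against 642 CPM, 2.06-fold higher, and the median log2 ratio was -0.06. Over all 5066 genes 5.63% were higher and 3.73% lower, so this count is not far from that share. Mki67 was at 265 and 257 CPM, Top2a at 291 and 254 CPM, and Pcna at 298 and 301 CPM.

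Signalling genes were next. Of 20 FGF pathway genes 6 had 100 UMIs, and 4 were higher and none lower: Fgfr3, the receptor of growing cartilage, at 152 CPM against 36.4 CPM (4.18-fold, 3.07 to 5.78), Fgfrl1, a receptor without a kinase domain, 2.15-fold, Fgfr2 1.96-fold and the glypican Gpc3 1.84-fold. Fgfr1 was at 211 and 179 CPM. Fgf8 and Fgf9, both ligands, had no UMI in the 122 spots. The genes that passed were thus receptors and a surface proteoglycan. No UMI in 2645157 allows a level of up to 1.13 CPM (3 UMIs).

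In the hedgehog pathway, Ptch1, the receptor that hedgehog signalling itself induces, ranged from 0 to 791 CPM (median 210) in Col2a1-high and from 0 to 304 CPM (median 98.2) in Col2a1-low spots, a ratio of 2.21 (1.82 to 2.70). Gli1, the other standard target, was at 141 against 98.4 CPM, a 1.43-fold difference that missed the ratio. Gas1, a co-receptor, was 1.90-fold lower, and Smo, Gli2, Gli3, Sufu and Scube3 were within a ratio of 1.5. Both Ptch1 and Gli1 were above their levels in the 770 remaining spots, 44.0 and 22.4 CPM, also in the Col2a1-low group. Foxf2 and Foxf1, forkhead genes of hedgehog-exposed mesenchyme, were 3.39-fold (2.59 to 4.48) and 1.92-fold higher.

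BMP and GDF genes went in both directions, 4 higher and 1 lower of 11 measured (31 listed). Bmper, an extracellular BMP regulator, was 2.86-fold, Id4 2.55-fold and Id1, a direct BMP target, 2.17-fold higher (439 against 202 CPM), and the ligand Bmp4 was 1.66-fold lower. Of 11 TGF-beta genes, Ltbp3, a latency protein, and the ligand Tgfb3 were higher by 1.89-fold and 1.73-fold. None of 5 Wnt genes passed the ratio, and of 4 Notch genes Hes1, a Notch target, was 2.60-fold lower. Among growth factors Ccn2 (CTGF, a matrix-bound growth factor of chondrocytes) was at 164 CPM against 40.5 CPM, 4.04-fold higher, and Igf1 was 4.18-fold lower.

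**Figure D3:**
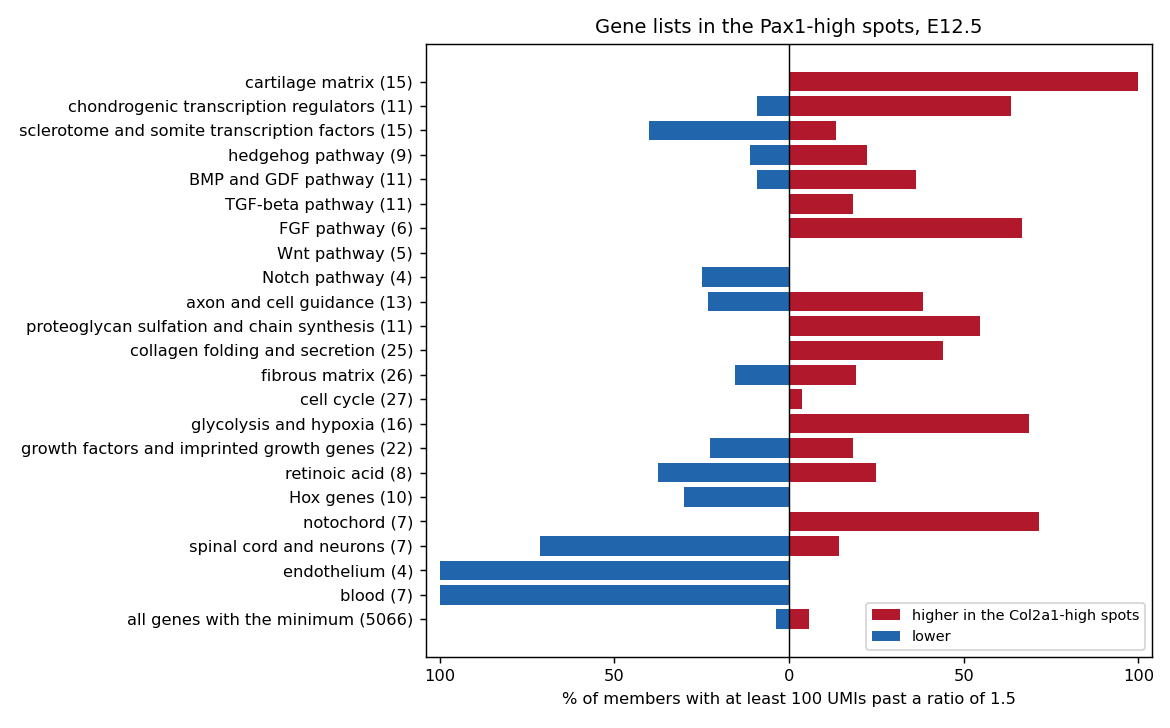
Share of the measured members of each gene list that were higher (red, to the right) or lower (blue, to the left) by at least 1.5 in the Col2a1-high spots at E12.5, with the number of members that had at least 100 UMIs in parentheses. Cartilage matrix reaches 100% (15 of 15) on the right and blood and endothelium 100% on the left (7 of 7 and 4 of 4), against 5.63% and 3.73% of all 5066 genes in the bottom bar. A gene that is high in 1 of the groups reaches 100 UMIs more easily, so these shares describe the measured genes only.

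The largest ratios of all 5066 genes were those of T and Shh, both notochord genes. The notochord is the rod of cells at the axis of the future vertebral column, later the nucleus of the disc, and it makes hedgehog. T (brachyury, the defining factor of notochord) was at 164 CPM against 10.8 CPM, 15.2-fold higher (9.10 to 27.1), and Shh (sonic hedgehog) at 161 CPM against 10.8 CPM, 14.9-fold (8.95 to 26.6). Car3 (carbonic anhydrase 3) was 10.9-fold and the keratin Krt8 7.14-fold higher. Of 14 notochord markers 7 had 100 UMIs, 5 were higher and none lower, and their summed level was 1504 CPM against 722 CPM. Noto, a further defining marker, had no UMI in the Pax1-high spots.

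These UMIs were concentrated in few spots. T had a UMI in 27 Col2a1-high and 13 Col2a1-low spots, its median was 0 CPM in both groups, and its highest spots had 2095 and 92.2 CPM. At 10000 UMIs per spot the shares with T were 31.0%, 10.0% and, in the other 892 spots of the section, 4.89%. Unthinned they were 44.3%, 21.3% and 8.97% at median depths of 19131, 23335 and 25098 UMIs. Notochord UMIs thus moved with the division of the spots, and their part in the other results is given next by leaving those spots out.

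The matrix genes were higher without the notochord-marked spots as well. Among Col2a1-high spots, the 33 without a T or Shh UMI had 301 CPM of Acan and 1474 CPM of Col9a3, and the 28 with one had 393 and 1566 CPM. Other matrix genes differed more between these spots, Col11a2 with 421 and 714 CPM and Susd5 with 112 and 388 CPM. Car3 was at 9.36 and 334 CPM in the same spots and Krt8 at 4.68 and 230 CPM. With all 46 such spots left out and the remaining 76 divided anew at their Col2a1 median, 12 of 12 measured matrix genes were higher (median log2 ratio 1.94), Acan by a log2 ratio of 3.09, Sox9 by 1.27, Ptch1 by 1.05 and Foxf2 by 1.76. The notochord list then had 2 measured genes and none higher, and the signs of Krt8 (log2 ratio -0.66) and of the guidance gene Slit2 (-1.08) turned. T and Shh are on the notochord list and had no UMI in the spots kept. The loss on that list thus follows at least in part from the choice of spots and is no finding. Not every notochord marker lost its difference. Foxa1, with 55 UMIs left and so not counted, had a log2 ratio of 2.69, against 1.43 with all spots. Among the genes named above or below that no longer passed the ratio were Bmp4 (log2 ratio -0.08), Foxp1 (-0.55), Papss1 (0.35), Rarg (0.57) and Tgfb3 (0.53). So were Car3 (0.34, with 16 UMIs left) and Slc16a3 (0.46, with 48 UMIs left). The log2 ratio of Igf1 went from -2.06 to -0.98, that of Crabp1 from -2.79 to -2.06, that of Meis2 from -1.64 to -0.96, that of Cdh5 from -3.12 to -2.45 and that of Emcn from -3.46 to -2.68. Collagen folding genes were then higher in 5 and lower in 1 of 20, and glycolysis genes higher in 6 of 12, and over all genes 177 were higher and 122 lower of 3326 measured.

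Vessel and blood genes made up the other end. All 4 measured endothelial markers of 10 were lower: Emcn (endomucin) was at 6.02 CPM against 66.1 CPM, 11-fold lower (5.13 to 28.0), Cdh5 (VE-cadherin) 8.70-fold, Plvap (a protein of endothelial pores) 6.62-fold and Egfl7 6.33-fold. The endothelial list summed to 90.4 CPM against 665 CPM, and in single spots it reached 356 CPM in the Col2a1-high and 2364 CPM in the Col2a1-low group, with medians of 77.9 and 454 CPM. Aplnr, the apelin receptor, and Plxnd1, a semaphorin receptor of vessels, were 7.31-fold and 6.11-fold lower. Endothelial UMIs were thus sparse in Col2a1-high spots, while in Col2a1-low spots Egfl7, at 202 CPM, was above the 119 CPM of the 770 remaining spots.

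All 7 measured globin genes, some of them near-identical copies whose reads counting may split, were lower, from 3.32-fold to 4.73-fold, and their list summed to 2179 CPM against 8895 CPM. Without the spots in the top 10% of the section by the endothelium list (a choice made after seeing the data), 54 Col2a1-high and 55 Col2a1-low spots gave 235 higher and 148 lower genes. In them the log2 ratio was -2.08 for Egfl7, 2.77 for Acan and -2.73 for Crabp1, the same directions as before. It was -2.09 for Cdh5, -1.75 for Plvap and 2.51 for Chad, nearer to 0 than with all spots, as was that of Egfl7. Cdh5, Plvap and Egfl7 are on the list that chose the spots left out, so their smaller differences follow at least in part from that choice. Col3a1 (-0.41), Zic1 (-0.26) and Tgfb3 (0.41) no longer passed the ratio. The part of vessel and blood cells in the other lower genes was not tested.

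Retinoic acid patterns the trunk axis, and Crabp1, which binds it in the cytosol, was among the lower genes. It was at 2229 CPM in Col2a1-low spots, from 0 to 6974 CPM with a median of 716, and at 323 CPM in Col2a1-high spots, from 0 to 1976 CPM with a median of 153, a 6.91-fold difference (6.21 to 7.71). The ranges overlapped, and Crabp1 had a UMI in 60 of 61 Col2a1-low and 51 of 61 Col2a1-high spots. Crabp2, its relative, was 2.26-fold lower. Cyp26b1, which breaks retinoic acid down, was higher by 2.35-fold and the receptor Rarg by 1.88-fold, so that the measured retinoic acid genes went both ways, 2 higher and 3 lower of 8.

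Of 32 listed sclerotome and somite factors, 15 had 100 UMIs. Only the Foxf genes were higher and 6 were lower, among them Meis1 and Meis2, homeodomain partners of Hox proteins, 3.55-fold and 3.11-fold, Prrx1, a factor of loose and limb mesenchyme, 2.83-fold, Foxd1 1.93-fold and Zic1 1.54-fold. Prrx2 (49.9 and 58.0 CPM), Uncx, Foxc1, Foxc2, Twist1, Twist2 and Nfatc4 were within a ratio of 1.5. Of 39 Hox genes 10 had 100 UMIs, and Hoxd10, Hoxa9 and Hoxa10, genes of the posterior trunk, were 1.83, 1.67 and 1.59-fold lower.

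Ednrb, the endothelin B receptor of neural crest and other cells, had the largest ratio in this direction, 12.2-fold lower (6.02 to 29.0) at 6.88 CPM against 84.3 CPM. Ntrk2 (the BDNF receptor TrkB) was 6.01-fold, Nr2f1 (an orphan nuclear receptor) 5.15-fold and Hic1 (a repressor of mesenchymal progenitors) 4.65-fold lower. Cxcl12, a chemokine, was at 215 CPM against 578 CPM. Of 7 measured neuronal genes 5 were lower, while Map2, a neuronal microtubule protein, was 4.17-fold higher. Skeletal muscle genes summed to 211 CPM in the Col2a1-high and 369 CPM in the Col2a1-low spots, and 1 Col2a1-low spot reached 5325 CPM. Of 20 listed 2 had 100 UMIs, and Actc1, a striated muscle actin, was 2.14-fold lower. The muscle factors Pax3, Pax7 and Myf6 and the neural factors Pax6 and Olig2 were at 0 in all 122 spots, as were the hypertrophic cartilage and bone genes Col10a1, Ibsp and Mmp13.

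The matrix of loose connective tissue was divided. Of 26 measured genes 5 were higher, among them Thbs1 (thrombospondin 1, 3.70-fold) and Lum (lumican, 1.90-fold), and 4 were lower, Col5a2 (2.68-fold), Postn (periostin, 2.65-fold), Col1a1 (2.17-fold) and Col3a1 (1.52-fold). Col1a2, the partner chain of Col1a1 in collagen I, was at 830 and 655 CPM and did not go the same way. Fn1 (fibronectin) was at 728 and 740 CPM.

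Dividing the Pax1-high spots into 4 bins by Col2a1 (31, 31, 30 and 30 spots, at 1314, 2741, 5256 and 12499 CPM of Col2a1) showed different shapes. Acan was at 31.9, 64.0, 167 and 564 CPM from the lowest to the highest bin, and Sox9 at 131, 182, 283 and 503 CPM. T was at 4.90, 17.4, 57.3 and 300 CPM. Acan and Sox9 thus climbed at every bin, and T had most of its level in the top bin. Crabp1 was lower from bin to bin, with 2773, 1520, 410 and 224 CPM, and Egfl7 was at 246, 142, 35.0 and 29.3 CPM. Foxf2 levelled off at 33.1, 75.6, 162 and 189 CPM.

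**Figure D4:**
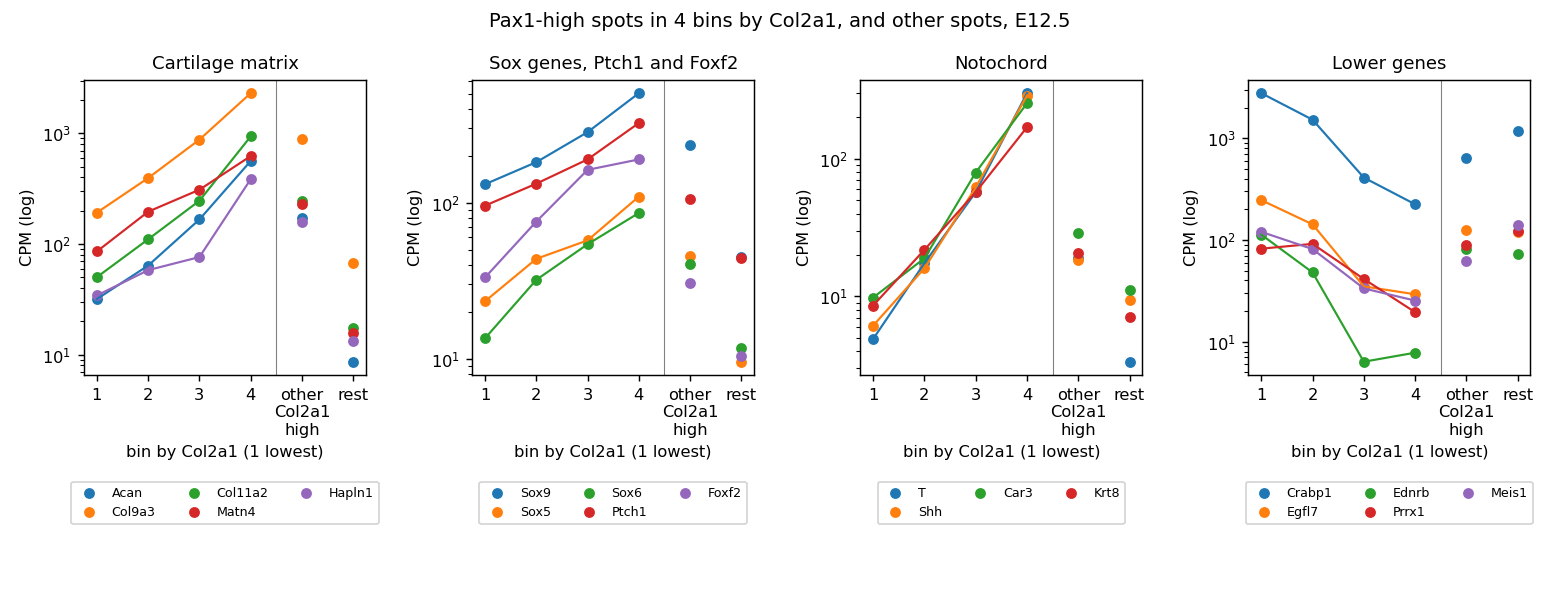
Levels of named genes at E12.5 in 4 bins of the Pax1-high spots by Col2a1 (1 lowest, 4 highest), in 122 Col2a1-high spots outside the Pax1-high group and in the remaining 770 spots. The y axis is CPM on a log scale, and points are summed over spots; Acan goes from 31.9 to 564 CPM and Crabp1 from 2773 to 224 CPM from bin 1 to bin 4.

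Cartilage outside the Pax1-high spots gave a comparison at a like Col2a1 level. The 122 spots with the highest Col2a1 among the others had 4348 CPM of Col2a1, near the third bin. They had 170 CPM of Acan, 893 CPM of Col9a3 and 234 CPM of Sox9, against 167, 879 and 283 CPM in that bin. They had 30.7 CPM of Foxf2, 19.4 CPM of Foxf1 and 105 CPM of Ptch1, against 162, 121 and 189 CPM there. The spots outside thus had like summed levels of Acan and Col9a3 and lower levels of Foxf2 and Foxf1. Their Col2a1 was somewhat below the 5256 CPM of that bin, and no test is possible in 1 section.

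The same rule applied to the other sections gave spots that the E12.5 choice had not used: 93 Col2a1-high and 94 Col2a1-low of 1561 spots at E11.5, and 81 and 82 of 1360 at E13.5. At E13.5 the groups differed in depth, with medians of 7833 and 18872 UMIs, and at E11.5 the medians were 19985 and 23754 UMIs. Pax1 itself was unequal at E11.5, at 365 and 181 CPM. Over both groups it was at 264 CPM there, with single spots at 0, against 968 CPM at E12.5. Col2a1 was at 3761 and 719 CPM at E11.5 and at 28109 and 5429 CPM at E13.5. The E12.5 division fell between 3967 and 4130 CPM. The summed Col2a1-high spots of E11.5 were thus below it and the summed Col2a1-low spots of E13.5 above it. Genes of other tissues differed too. Skeletal muscle genes summed to 2820 and 4872 CPM in Col2a1-high and Col2a1-low spots at E13.5, against 211 and 369 CPM at E12.5. Heart genes summed to 344 and 286 CPM at E11.5, against 6.02 and 11.46 CPM at E12.5. The groups are therefore not alike over stages. The part of such tissue in the overlaps and the test below was not tested. Of the 285 genes higher at E12.5, 107 of the 251 with 100 UMIs at E11.5 were higher there as well (42.6%, where 4.83% of all 6461 genes were higher) and none was lower. These are 34.3% of the 312 genes higher at E11.5. At E13.5 it was 87 of 226 (38.5%, with 7.12% of all 4562 genes higher, and 26.8% of the 325 higher there), and 9 were lower. Of the 189 lower genes, 43 of 180 were lower at E11.5 (23.9%, background 2.77%, and 24.0% of 179) and 81 of 135 at E13.5 (60.0%, background 9.58%, and 18.5% of 437).

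**Figure D5:**
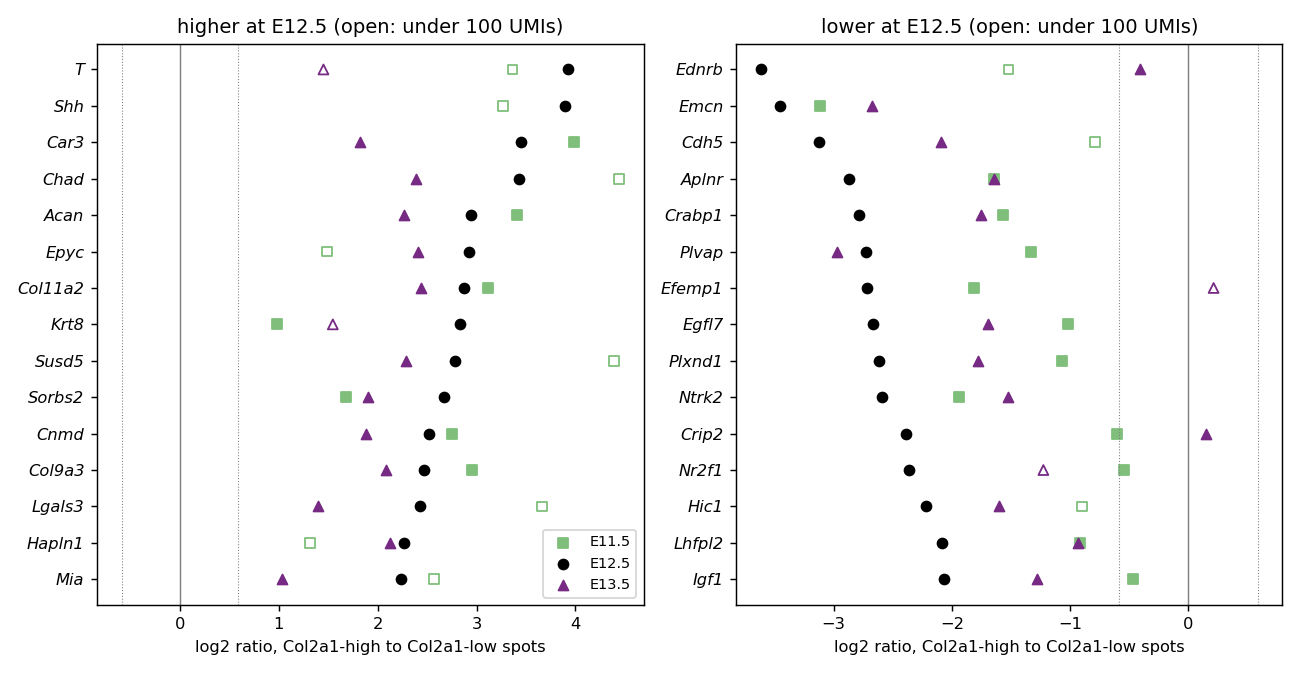
Log2 ratio of Col2a1-high to Col2a1-low spots in each section for the 15 genes with the largest ratio in each direction at E12.5. Squares are E11.5, circles E12.5 and triangles E13.5, open where the gene had under 100 UMIs, and dotted lines mark a ratio of 1.5; of these 30 genes, Efemp1 and Crip2 were on the other side of 0 at E13.5, and Shh has no point there, having 0 and 5 UMIs.

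These 2 sections allowed a test, edgeR's quasi-likelihood test on the summed UMIs of each group with the section as a block and Benjamini-Hochberg adjustment over 11292 genes. The block takes out the difference between sections. What is left is how far the ratio of the groups disagrees between 2 sections of different stages, and not a spread between embryos of 1 stage. With 2 groups in each of 2 sections, 1 residual degree of freedom remains for each gene. The p values therefore rest largely on a spread estimated over many genes together. The SE given below is the absolute log2 fold change over the square root of the test's F statistic. It is not a separately measured spread. It found 93 genes higher (0.824%) and 66 lower (0.584%) at an adjusted p under 0.05, with 1090 at an unadjusted p under 0.05. Without the block it found none in either direction and 132 at an unadjusted p under 0.05. Of the E12.5 genes, 58 of the 283 tested higher ones were higher (20.5%, and 62.4% of the 93), and 23 of 189 lower ones were lower (12.2%, and 34.8% of the 66), with none in the opposite direction.

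Cartilage matrix rose with Col2a1 in these sections: 22 of 24 tested genes were higher and none lower, with a median log2 fold change of 2.07, against 0.00 for all genes tested. Acan was at 83.5 and 7.85 CPM at E11.5 and at 1858 and 386 CPM at E13.5 in Col2a1-high and Col2a1-low spots, a log2 fold change of 2.61 ± 0.21 (SE, adjusted p = 2.92e-05). Col11a2 changed by 2.67 ± 0.18 (adjusted p = 9.16e-06) and Col9a3 by 2.48 ± 0.19 (adjusted p = 1.89e-05). Vcan did not pass (0.69 ± 0.19, adjusted p = 0.126) and Matn2 was on the other side of 0 (-0.59 ± 0.24, adjusted p = 0.388). Both sections showed the direction of Acan, Col11a2, Col9a3 and Vcan, and the 2 late genes Comp and Matn1 passed with nearly all of their UMIs at E13.5.

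Of the regulators, Wwp2 (2.51 ± 0.16, adjusted p = 9.16e-06), Sox9 (1.38 ± 0.17, adjusted p = 0.00103), Sox6 (1.35 ± 0.30, adjusted p = 0.0441) and Creb3l2 (1.04 ± 0.21, adjusted p = 0.0275) rose, and Sox5 (1.16 ± 0.29, adjusted p = 0.0738) missed the threshold. All 4 FGF genes named above rose, Fgfr3 by 1.79 ± 0.23 (adjusted p = 0.00103), while Dusp6, a feedback inhibitor that FGF signalling induces, fell by 1.65 (SE 0.27, adjusted p = 0.00772). Papss2 rose by 2.70 ± 0.27 (adjusted p = 0.000141), and 5 of 33 collagen folding genes (Loxl3, P4ha1, Plod1, Plod2 and P3h1) and 4 of 19 glycolysis genes (Pfkp, Bnip3, Slc16a3 and Tpi1) rose, with none lower in either list. By DESeq2, an alternative with fewer calls over all genes (31 higher and 10 lower), none of these collagen folding genes and 1 glycolysis gene passed, as did 16 of the cartilage matrix genes and 3 FGF genes.

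Foxf2 rose by 1.24 ± 0.21 (adjusted p = 0.0099), at 180 against 73.3 CPM at E11.5 and with only 20 UMIs in either group at E13.5. Foxf1 (1.24 ± 0.30, adjusted p = 0.0647) and Ptch1 (0.63 ± 0.18, adjusted p = 0.15) did not pass, and of 14 tested hedgehog genes none did, with 4 at an unadjusted p under 0.05 and none by DESeq2. Over all genes tested 0.824% were higher and 0.584% lower by edgeR, so none passing of 14 is near that share. Id1, 2.17-fold higher at E12.5, was at 204 and 213 CPM at E11.5 and had a log2 fold change of 0.07 ± 0.16 (adjusted p = 0.956). T rose by 2.29 ± 0.39 (adjusted p = 0.0091), Car3 by 2.59 ± 0.33 (adjusted p = 0.00117) and Krt8 by 1.22 ± 0.27 (adjusted p = 0.0424), while Shh had too few UMIs to be tested. None of the notochord genes passed by DESeq2.

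Crabp1 fell by 1.64 on the log2 scale (SE 0.15, adjusted p = 7.11e-05), with 492 against 1460 CPM at E11.5 and 178 against 602 CPM at E13.5. Of 10 endothelial genes 8 fell and none rose, Emcn by 2.89 (SE 0.29, adjusted p = 0.000182), and 3 of 9 blood genes fell. Of 28 sclerotome and somite factors Foxf2 rose and 8 fell, among them Prrx1 (65.1 against 150 CPM at E11.5 and 44.9 against 71.9 CPM at E13.5, adjusted p = 0.0343), Prrx2 (-1.26 ± 0.23, adjusted p = 0.0132) and Meox1 (-1.05 ± 0.21, adjusted p = 0.0295). Meis1 and Meis2 did not pass (adjusted p = 0.9 and 0.15), and Meis1 was at 43.5 against 36.3 CPM at E13.5. By DESeq2, 2 of the endothelial, 2 of the blood and 2 of the sclerotome and somite genes passed. Of 16 muscle genes 6 fell (Myog, Pax7, Myh3, Acta1, Tnnt1 and Ttn), none of them by DESeq2. None of 31 cell cycle genes passed, with 3 at an unadjusted p under 0.05 and none by DESeq2. Over all 11292 genes 0.824% were higher and 0.584% lower in the edgeR test, and 1090 had an unadjusted p under 0.05. The cell cycle counts are near those shares and are no result about that list.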

How the data were processed

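The labels give 1 Visium section per stage and no embryo numbers, strain or sex. UMI counts per gene and spot were deposited by the authors, made with Space Ranger 1.2.0 per the file headers, and the submitters' processing notes name STAR and mm10. For the STAR version, the annotation and the choice of spots over tissue, nothing is given in the sources used here, and spot positions were not used. UMIs were summed over spots and expressed as CPM, with exact 95% Poisson intervals, or an exact conditional binomial interval for a ratio. These cover counting error only. No doublet caller was run. The test on E11.5 and E13.5 used edgeR 4.0.16 in R 4.3.3 (filterByExpr, TMM, quasi-likelihood, section as a block, Benjamini-Hochberg), which was tested on simulated data. DESeq2 1.42.0 was an alternative. The section pairs the groups, since both groups of a section come from the same library. Named genes were the 15 with the largest ratio in each direction, with at most 20% of their UMIs in 1 spot of the higher group, leaving out the choosing genes and globin, mitochondrial, ribosomal protein, sex-linked, predicted, unnamed and repeated symbols. List members past the ratio were also named, up to 6 per list and direction, with the defining members of a pathway whether or not they passed. The spots and the 32 gene lists were chosen with earlier results of these data known. Genes named outside that rule were chosen after their values were seen. Some list members are counted but not reported here by name.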

Additional observations from a re-analysis of the deposited data

Results flagged for a closer look

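Of the 474 genes higher or lower at E12.5, 13 passed a ratio of 1.5 in the opposite direction in another section with at least 100 UMIs there. The difference between stages was not tested, with 1 section a stage. At E13.5 the Col2a1-high spots also had fewer UMIs than the Col2a1-low spots (medians 7833 and 18872), and the part of depth was not tested.

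Of the 13, 9 were higher at E12.5 and lower at E13.5. Bmper, a BMP regulator, had a ratio of 2.86 at E12.5 and 0.649 at E13.5, and Gdf10, a BMP-family ligand, 1.57 and 0.463. Lrrc17, a secreted leucine-rich protein, had 2.90 and 0.599, and Ndnf, a secreted fibronectin-domain protein, 2.08 and 0.435. Sparcl1, a matricellular protein, had 1.82 and 0.591, and Angptl1, an angiopoietin-like protein, 1.55 and 0.618. Ifitm3, an interferon-induced membrane protein, had 1.68 and 0.435, Bmf, a cell death regulator, 1.64 and 0.604, and Zfp512, a zinc finger gene, 1.52 and 0.621.

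The other 4 were lower at E12.5. Lsp1, a leukocyte actin-binding protein, had a ratio of 0.644 at E12.5 and 2.23 at E13.5. The beta-globin gene Hbb-bs had 0.218 at E12.5 and 1.77 at E11.5. The neurofilament genes Nefm and Nefl had 0.442 and 0.376 at E12.5 and 1.54 and 1.51 at E11.5.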

How the results depend on the processing

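At E12.5, against 285 higher and 189 lower genes, the counts were 146 and 109 in the top 8% of spots, 379 and 305 in the top 16%, 141 and 71 with spots thinned to 10000 UMIs, 87 and 67 at a ratio of at least 2, 600 and 484 at a minimum of 50 UMIs, 130 and 59 at 200 UMIs, and 177 and 122 without spots with a T or Shh UMI. The lower minimum, the stricter ratio and the fewer spots or UMIs change by construction how many genes can pass, and no other cause was tested. The other settings stayed within 1.5 times. Leaving out the spots highest in endothelium or notochord genes was chosen after seeing the data. Leaving out the spots highest in neuron genes removed no Pax1-high spot and so tests nothing. Among the single-gene ratios of the 124 genes, 202 of 1734 values over these settings left the interval of the ratio with all spots without changing sign, and 1526 stayed within it. A further 6 changed sign: Krt8 to -0.66 and Slit2 to -1.08 without T or Shh spots, and Shh to -0.36, Krt8 to -2.14, Lgals3 to -0.45 and Slit2 to -0.90 without the spots highest in notochord genes. In the last setting the genes that no longer passed the ratio included Gas1 (-0.50), Hoxa9 (-0.51), Zic1 (-0.27), Bmp4 (-0.10), Slc16a3 (0.50) and Papss1 (0.51). T (0.25) and Car3 (0.29) were also among them, while Foxa1 was at 2.86 with 38 UMIs left. The spots left out there were chosen by the notochord list, which holds T, Shh, Car3, Krt8 and Foxa1. A loss in these genes thus follows from the choice and is no finding. For E11.5 and E13.5, against 93 higher and 66 lower genes, edgeR found 0 and 0 without the replicate block (132 at an unadjusted p under 0.05), 219 and 209 with the E12.5 section added, 219 and 210 with no filter (18039 genes), 41 and 9 in the top 8% and 276 and 266 at 5000 UMIs per spot. DESeq2 found 31 and 10, and its size factors in edgeR gave 62 and 37. The cause was not tested. Leaving out a section leaves no residual degrees of freedom, so it gives values with no test.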
